A study of Mus musculus with 7 samples.

Results

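The Wnt genes described here are the ligands, receptors and secreted modulators of the Wnt pathway, together with the readout genes Axin2 and Lef1. They comprise every protein-coding mouse gene named Wnt, Fzd, Sfrp, Dkk or Rspo with a number, plus Lrp5, Lrp6, Wif1, Axin2 and Lef1, and they were selected on a summed count of at least 10 over all 7 libraries. Of 46 such genes, 42 reached this count, out of 55450 genes in the table: 17 ligands, 12 receptors, 4 R-spondins, 7 secreted inhibitors and 2 target genes. Just inside the minimum lay Wnt1 with 10 counts, and just outside lay Dkk1 with 9, Wnt8a with 4, Dkk4 with 3 and Wnt8b with 1.

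Dorsal skin of wild type C57BL/6 male mice aged 24 months was sequenced in bulk from polyA RNA. After clipping, depilation and an ethanol wipe of the back, either 5 μM ABT-263, an inhibitor of Bcl-2 family proteins used as a senolytic, or its vehicle DMSO was kept under a semi-occlusive dressing for 5 days. There were 4 DMSO libraries (480 to 483) and 3 ABT-263 libraries (476 to 478), and each number was taken as that of 1 mouse, so p-values measure the spread between these libraries. No untreated skin, young skin or skin without hair removal was analysed here, so the effects of hair removal and dressing are shared by both groups.

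Wnt proteins are secreted signals that bind Frizzled receptors and, in the branch that stabilises beta-catenin, the co-receptors Lrp5 and Lrp6. R-spondins strengthen the signal by keeping Frizzled receptors at the cell surface, whereas secreted Frizzled-related proteins and Wif1 bind Wnts and Dickkopf proteins mostly bind the co-receptors. In skin the pathway is known for the growth phase of the hair follicle, for renewal of the interfollicular epidermis and for the patterning of the dermis.

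Total counts per library ranged from 20344364 to 43562330, and the Wnt genes held between 0.0689% and 0.116% of them. Keratinocyte and fibroblast transcripts marked the tissue as skin: the 6 basal keratinocyte markers summed to at least 13466 CPM (counts scaled to a library total of 1000000 after TMM normalization) and the 6 fibroblast markers to at least 2752 CPM in every library. Skeletal muscle markers were also abundant, from 22212 to 54750 CPM. The libraries differed in transcripts of the hair shaft and matrix. The 17 markers summed to 3712 CPM in DMSO library 481 and 601 CPM in ABT-263 library 478. In the other 5 libraries they summed to 8.15 to 53.0 CPM. Library 481 held the highest value of 16 of the 42 Wnt genes, and ABT-263 library 476 held the lowest value of 20. All comparisons are of tissue RNA, in which fewer cells of a type and less RNA per cell cannot be told apart.

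Among the 39 Wnt genes that passed the expression filter, Sfrp2 and Fzd1 rose after ABT-263 and Wnt3, Wnt6, Wnt7b, Rspo3, Dkk2 and Fzd3 fell (edgeR quasi-likelihood test, Benjamini-Hochberg adjusted p under 0.05 over 17959 genes). The changes thus took in members of every role except the target genes. These 8 genes were 20.5% of those tested, where 24.2% of all genes tested passed the same threshold. Higher calls numbered 2 of 39, against 12.4% of all genes, and lower calls numbered 6 of 39, against 11.7% of all genes. The libraries of the groups did not overlap for 13 Wnt genes, or 33.3%, where the figure for all genes was 37.1%. Of the 39, 10 lay below all DMSO libraries (18.4% of all genes did) and 3 lay above them (18.7% of all genes did). Expression differences had a median of −0.21 on the log2 scale over the 39 Wnt genes and of 0.0022 over all genes tested. The 3 Wnt genes that did not pass the expression filter were Wnt1, Wnt2b and Rspo2.

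**Figure D1:**
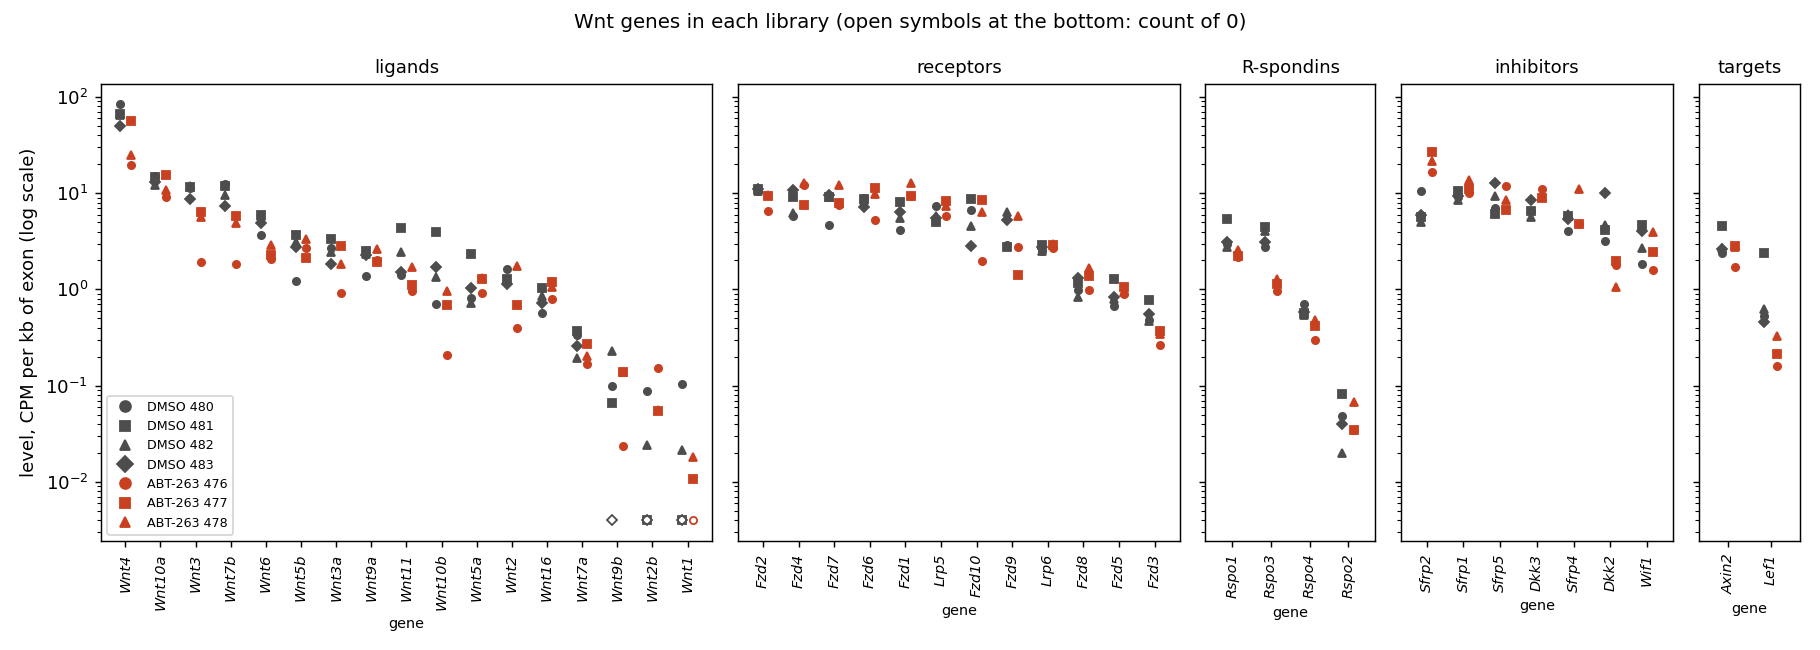
Level of each of the 42 Wnt genes in each library, in CPM per kb of exon on a log scale, with genes grouped by role and ordered by mean level. Grey symbols are the 4 DMSO libraries, red symbols the 3 ABT-263 libraries, and open symbols at the bottom mark a count of 0. Wnt4 stands highest in every library, and the red symbols lie below the grey ones for Wnt3, Wnt7b, Wnt6, Rspo3 and Dkk2 and above them for Sfrp2 and Fzd1.

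Between genes, levels were compared per kb of exon. Wnt4, a ligand of the epidermis, was the most abundant Wnt gene, with a mean of 52.3 CPM per kb over the 7 libraries, and it made up 39.1% to 61.1% of the summed ligand level in a library. Inhibitor order differed between treatments: with DMSO the means were 9.38 CPM per kb for Sfrp1, 8.80 for Sfrp5, 6.82 for Dkk3 and 6.77 for Sfrp2, and with ABT-263 Sfrp2 led with 21.7. Wnt10a, with 12.9 CPM per kb over all libraries, was the second ligand, and Fzd2, with 9.86, was the leading receptor. Rspo3 and Rspo1 were close with DMSO, at 3.61 and 3.57 CPM per kb, and stood at 1.13 and 2.33 with ABT-263. The order among Fzd2, Fzd4 (9.23 CPM per kb), Fzd7 (8.58), Fzd6 (8.50) and Fzd1 (7.96) is within the spread between libraries.

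Of the ligands, Wnt7b, Wnt3 and Wnt6, all known from keratinocytes, fell to 0.405, 0.427 and 0.477 of their DMSO means, and no ligand was called higher. These were 20% of the 15 ligands tested, where 24.2% of all genes were called in either direction and 11.7% were called lower. The groups did not overlap for 20% of the ligands, against 37.1% of all genes. Of the 15 ligands, 12 had a fold change below 1, as did 8959 of all 17959 genes tested. The median log2 difference of the ligands was −0.46. On GRCm38 the 3 genes lie at chr15:85535437-85582473 (Wnt7b), chr11:103774150-103817957 (Wnt3) and chr1:74771892-74785322 (Wnt6), and reads were counted over their exons. Wnt7b, which acts in hair follicle cycling, read 60.5, 58.5, 47.4 and 35.7 CPM in DMSO libraries 480 to 483, and 8.97, 28.6 and 23.8 CPM in ABT-263 libraries 476 to 478. All ABT-263 libraries lay below all DMSO libraries, and library 476 lay farthest down. The log2 fold change was −1.30 ± 0.38 (SE, adjusted p = 0.0443, edgeR). Wnt3, which supports the follicle and its dermal papilla, was at 34.6, 35.5, 36.2 and 26.8 CPM in the DMSO libraries and at 5.93, 19.4 and 17.3 CPM after ABT-263. The groups did not overlap, and library 476 was again the lowest. Wnt3 fell by 1.22 ± 0.37 on the log2 scale (SE, adjusted p = 0.0469, edgeR). Wnt6, a ligand of surface epithelium, measured 8.02, 13.0, 12.6 and 10.6 CPM in DMSO-treated skin and 4.58, 4.99 and 6.29 CPM in ABT-263-treated skin. Here the 3 treated libraries lay close together, below every control. Wnt6 fell by 1.06 ± 0.23 on the log2 scale (SE, adjusted p = 0.0168, edgeR).

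The calls differed in how far they held when 1 library was left out. Such a fit also has fewer libraries, so a lost call does not by itself show dependence on the library left out. Wnt6 kept its call in 6 of 7 fits that each left out 1 library and lost it without DMSO library 482 (adjusted p = 0.0519, edgeR). Wnt3 kept it in 2 of 7 and lost it without any of the 4 DMSO libraries or ABT-263 library 478, with adjusted p from 0.0733 to 0.102 and log2 fold changes over the 7 fits from −1.50 to −0.85. Wnt7b kept it in 2 of 7 and lost it without the same libraries, with adjusted p from 0.0605 to 0.0914 and log2 fold changes over the 7 fits from −1.61 to −0.94. Wnt3 and Wnt7b also missed the threshold when genes with at least 10 counts, or with at least 1, were tested. The summed epidermal markers overlapped between groups: basal keratinocyte markers spanned 15658 to 30128 CPM in DMSO and 13466 to 35002 CPM in ABT-263 libraries, with 1 of 6 higher and 0 lower, and suprabasal markers spanned 12162 to 42559 and 7232 to 27374 CPM, with 0 of 6 called. None of these 12 markers was at 0, and library 476 was the lowest of all 7 in both sums. The summed bulge and outer root sheath markers were lower in every treated library than in every control, at 1473 to 3083 CPM with DMSO and 705 to 1276 CPM with ABT-263. Krt15 made up most of each sum, at 1099 to 2626 CPM with DMSO and 407 to 943 CPM with ABT-263. Of these 6 markers, Krt15 (log2 fold change −1.45), Sox9 (−1.29) and Lhx2 (−1.19) fell. Tbx1 (−0.92), Krt75 (−0.06) and Cd34 (0.29) did not pass the test, and the last of them went the other way. The part of epidermal and follicle content in the ligand values was not tested.

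Promoter windows of Wnt3 and Wnt6 are printed to show the base composition around the start sites of ligands that fell. Both were taken from RefSeq on GRCm38.p6 and run from 250 bases before to 50 bases after the start. The Wnt3 window is chr11:103773925-103774224, plus strand, and the Wnt6 window is chr1:74771642-74771941, plus strand. Capitals mark a LEF/TCF word, searched as CTTTGAA or CTTTGAT or CTTTGTA or CTTTGTT on either strand, and Wnt6 holds none.
Wnt3: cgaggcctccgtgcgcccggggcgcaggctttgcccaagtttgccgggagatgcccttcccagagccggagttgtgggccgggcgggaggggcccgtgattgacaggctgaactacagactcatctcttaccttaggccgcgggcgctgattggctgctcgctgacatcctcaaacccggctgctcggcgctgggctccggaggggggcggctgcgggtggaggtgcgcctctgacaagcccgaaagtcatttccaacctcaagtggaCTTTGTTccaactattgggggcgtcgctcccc
Wnt6: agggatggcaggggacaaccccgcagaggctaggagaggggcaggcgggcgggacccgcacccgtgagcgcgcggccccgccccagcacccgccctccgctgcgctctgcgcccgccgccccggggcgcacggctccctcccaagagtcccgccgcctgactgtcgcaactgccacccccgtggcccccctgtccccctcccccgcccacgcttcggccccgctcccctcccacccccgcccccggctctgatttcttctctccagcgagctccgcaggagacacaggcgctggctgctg
The table of windows held 28 of the 42 Wnt genes in 34 windows. A LEF/TCF word stood in 5 of these 34, or 14.7%, and in 16.9% of all 32851 windows. The motif TATAAA, on either strand, stood in 14.7% of the Wnt windows and 13.6% of all windows. Wnt windows had a median GC content of 68.2%, compared with 52.7% over all windows. A match is a description of the letters only.

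Wnt4 did not pass the test. It was at 351, 277, 272 and 209 CPM in DMSO libraries 480 to 483 and at 82.6, 238 and 106 CPM in ABT-263 libraries 476 to 478. ABT-263 library 477 lay among the controls, and the other two lay below them. Its log2 fold change was −0.97 ± 0.37 (SE, adjusted p = 0.0908, edgeR). Wnt10a, a ligand needed for skin appendages, was at 36.9, 36.2, 30.3 and 32.2 CPM with DMSO and 22.6, 38.2 and 27.0 CPM with ABT-263. The groups overlapped, with a log2 fold change of −0.21 and a 95% interval from −0.65 to 0.22 (adjusted p = 0.431, edgeR).

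The largest ligand difference belonged to Wnt10b, a ligand of growing follicles. Its values were 2.37, 13.6, 4.62 and 5.75 CPM with DMSO and 0.715, 2.32 and 3.24 CPM with ABT-263. The log2 fold change of −1.64 ± 0.68 (SE) did not pass the test (adjusted p = 0.114, edgeR), and library 478 overlapped the controls. Without DMSO library 481, the highest, the log2 fold change was −1.01 (adjusted p = 0.242, edgeR). Wnt16, at the other end, was at 2.50, 4.47, 3.75 and 3.16 CPM with DMSO and 3.47, 5.19 and 4.58 CPM with ABT-263. These values overlapped, with a log2 fold change of 0.35 (adjusted p = 0.363, edgeR).

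The remaining ligands overlapped between groups and passed no threshold. Wnt11, a ligand of cell movements in development, spanned 5.81 to 17.8 CPM with DMSO and 3.97 to 7.07 CPM with ABT-263, with a log2 fold change of −0.94. Wnt2 spanned 2.59 to 3.64 CPM and 0.894 to 3.97 CPM, and its log2 fold change was −0.48. Both groups of Wnt2 were low, and ABT-263 library 478 held the highest value of all 7. Without it the log2 fold change of Wnt2 was −1.28 (adjusted p = 0.0641, edgeR). Wnt3a, a strong activator of beta-catenin signalling, spanned 5.09 to 9.31 CPM and 2.54 to 7.89 CPM (log2 fold change −0.46). Wnt7a, a close relative of Wnt7b, stayed between 0.536 and 1.18 CPM in all libraries (log2 fold change −0.44). The 2 relatives thus differed in level: Wnt7b averaged 7.68 CPM per kb and Wnt7a 0.258.

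Wnt5a and Wnt5b, ligands known mainly for beta-catenin-independent signalling, had log2 fold changes of −0.06 and −0.0030, with standard errors of 0.41 and 0.36. Wnt5a reached 18.1 CPM in DMSO library 481 and lay between 5.70 and 10.3 CPM in the other libraries, while Wnt5b spanned 3.27 to 9.82 CPM. Neither showed a separation of the groups. Wnt9a spanned 4.62 to 8.72 CPM with a log2 fold change of 0.04, and Wnt9b had a log2 fold change of 0.10. Wnt9b had no count in DMSO library 483, which allows up to 0.123 CPM at a floor of 3 counts. Wnt2b had 9, 0, 2 and 0 counts in DMSO libraries 480 to 483 and 18, 9 and 11 counts in ABT-263 libraries 476 to 478. Wnt1 had 6, 0, 1 and 0 counts, then 0, 1 and 2. Where a count was 0 in either gene, a floor of 3 counts allowed 0.107 to 0.126 CPM. Both genes were too low for a statement on direction: tested among the 23369 genes with at least 10 counts, Wnt2b had an adjusted p of 0.362 and Wnt1 of 0.554 (edgeR).

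All 3 R-spondins tested lay below the controls in every ABT-263 library, as did 18.4% of all genes, and 1 of them passed the test, where 11.7% of all genes were called lower. That gene, Rspo3 (chr10:29452416-29535867, GRCm38), made by dermal and vascular cells, fell to about 0.313 of its DMSO level, and its call was kept in all 7 fits that left out 1 library. Its values were 8.63, 13.9, 12.5 and 9.61 CPM in DMSO libraries 480 to 483 and 3.00, 3.53 and 3.93 CPM in ABT-263 libraries 476 to 478. All treated libraries lay below the lowest control, in a narrow range. The log2 fold change was −1.67 ± 0.23 (SE, adjusted p = 0.00635, edgeR), and it ranged from −1.78 to −1.55 when single libraries were left out. Rspo1, another stromal R-spondin, was at 5.69, 10.5, 5.39 and 6.08 CPM with DMSO and 4.25, 4.36 and 4.94 CPM with ABT-263. Its groups did not overlap, but the log2 fold change of −0.61 ± 0.28 did not pass the test (SE, adjusted p = 0.134, edgeR). Rspo4, known for nail development, was at 1.68, 1.35, 1.28 and 1.40 CPM with DMSO and 0.715, 0.983 and 1.14 CPM with ABT-263. It too lay below the controls in every treated library and missed the threshold (log2 fold change −0.58, adjusted p = 0.194, edgeR). Rspo2, an R-spondin of the dermal papilla, had 51 counts in all and lay between 0.103 and 0.421 CPM.

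Stromal marker lists differed in direction. The 6 dermal papilla markers summed to 79.4 to 155 CPM with DMSO and 48.2 to 84.9 CPM with ABT-263, with 0 called, none at 0, a log2 fold change below 0 for all 6 and a median of −0.70. The 6 fibroblast markers summed to 2752 to 3871 CPM and 4105 to 5466 CPM, with 2 higher, and the 6 endothelial markers to 185 to 386 CPM and 497 to 625 CPM, with 5 higher. The part of stromal content in the R-spondin values was not tested.

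**Figure D2:**
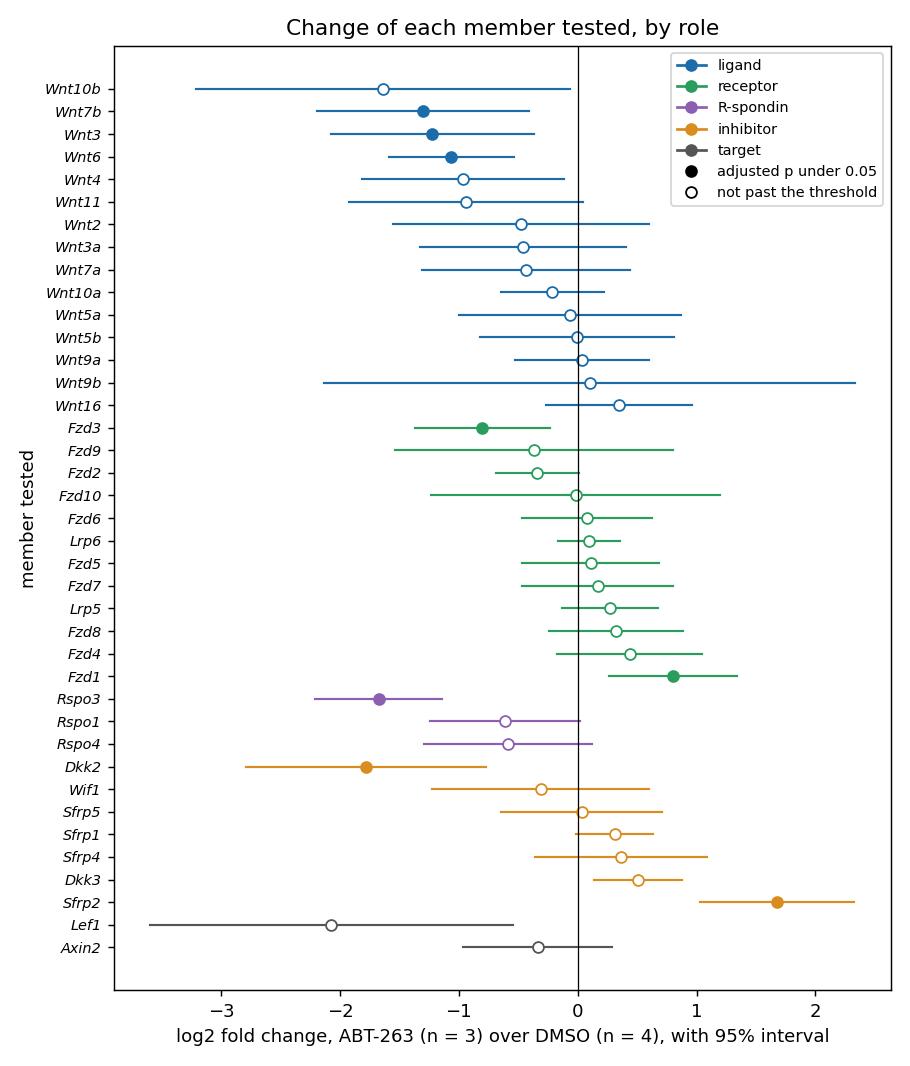
Log2 fold change of ABT-263 (n = 3) over DMSO (n = 4) for the 39 Wnt genes tested, one row per gene and coloured by role, with bars for the 95% interval. Filled points have an adjusted p under 0.05: Wnt7b, Wnt3, Wnt6, Fzd3, Rspo3 and Dkk2 to the left of 0, Fzd1 and Sfrp2 to the right.

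Of the 7 secreted inhibitors, 1 rose and 1 fell, or 28.6% together, against 24.2% of all genes tested. The log2 fold change was above 0 for 5 of the 7. Sfrp2, a Wnt-binding protein of dermal fibroblasts, rose 3.20-fold, and Dkk2, a Dickkopf that binds Lrp5 and Lrp6, fell to 0.292 of its DMSO level, while the other 5 did not pass the test. Both genes lie on chromosome 3 of GRCm38, Sfrp2 at chr3:83766321-83774316 and Dkk2 at chr3:132085292-132180304. Sfrp2 was at 22.5, 12.1, 10.7 and 12.9 CPM in DMSO libraries 480 to 483 and at 35.4, 57.7 and 46.8 CPM in ABT-263 libraries 476 to 478. Every treated library lay above the highest control, library 480. Sfrp2 rose by 1.68 ± 0.28 on the log2 scale (SE, adjusted p = 0.00901, edgeR). This call held in all 7 fits without 1 library, with values from 1.51 to 1.97. Sfrp2 made up 10.7% to 24.8% of the summed inhibitor level with DMSO and 28.6% to 42.8% with ABT-263.

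Dkk2 read 11.8, 15.3, 17.5 and 37.5 CPM with DMSO and 6.65, 7.39 and 3.91 CPM with ABT-263. All treated libraries lay below all controls, and DMSO library 483 lay far above the other controls. Dkk2 fell by 1.78 ± 0.44 on the log2 scale (SE, adjusted p = 0.0264, edgeR). Without library 483 the gene kept its call, whereas it lost it without DMSO library 482 (adjusted p = 0.0553) or ABT-263 libraries 476 (0.0746) or 478 (0.0845).

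The RefSeq promoter windows of both inhibitors that passed the test are printed for comparison, on GRCm38.p6, with TATAAA in capitals where it occurs. The Dkk2 window is chr3:132085042-132085341, plus strand, with TATAAA starting 32 bases before the start site. The Sfrp2 window is chr3:83766071-83766370, plus strand, and holds neither TATAAA nor a LEF/TCF word in these letters.
Dkk2: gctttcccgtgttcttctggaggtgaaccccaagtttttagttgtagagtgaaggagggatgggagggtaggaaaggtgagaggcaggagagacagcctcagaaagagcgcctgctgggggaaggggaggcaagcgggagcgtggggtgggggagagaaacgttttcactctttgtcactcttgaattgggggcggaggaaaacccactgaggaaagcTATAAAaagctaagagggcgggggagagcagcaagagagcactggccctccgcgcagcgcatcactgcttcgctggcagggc
Sfrp2: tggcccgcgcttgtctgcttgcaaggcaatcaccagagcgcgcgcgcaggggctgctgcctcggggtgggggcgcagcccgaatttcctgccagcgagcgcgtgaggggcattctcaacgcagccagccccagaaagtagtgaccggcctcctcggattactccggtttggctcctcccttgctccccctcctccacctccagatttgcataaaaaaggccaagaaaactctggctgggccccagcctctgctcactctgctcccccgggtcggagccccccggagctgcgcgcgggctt
GC content was 57.7% in the Dkk2 window and 66.0% in the Sfrp2 window.

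Dkk3, a divergent Dickkopf, was at 22.0, 22.0, 19.2 and 28.4 CPM with DMSO and 36.8, 29.9 and 30.9 CPM with ABT-263. The groups did not overlap, yet the log2 fold change of 0.50 ± 0.16 narrowly missed the threshold (SE, adjusted p = 0.0535, edgeR). Sfrp1, known to restrain Wnt signalling in the follicle, was at 39.7, 46.3, 37.5 and 40.5 CPM with DMSO and 44.4, 48.5 and 59.5 CPM with ABT-263. Library 476 lay among the controls, and the log2 fold change was 0.31 (adjusted p = 0.135, edgeR). Sfrp5 was at 13.4, 11.5, 17.8 and 24.2 CPM with DMSO and 22.6, 12.6 and 16.2 CPM with ABT-263, fully overlapping, with a log2 fold change of 0.03. Sfrp4 had a log2 fold change of 0.36 and reached 46.0 CPM only in ABT-263 library 478, against 16.8 to 25.5 CPM elsewhere. Wif1, the Wnt inhibitory factor, had a log2 fold change of −0.31, between 3.83 and 11.3 CPM.

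Beside Sfrp2 and Dkk3, the summed fibroblast markers were also higher in every treated library than in every control, with a median log2 difference of 0.59 over the 6 markers. The part of fibroblast content in these values was not tested. Neutrophil markers spanned 99.8 to 1820 CPM with DMSO and 5097 to 8318 CPM with ABT-263, and 3 of the 5 tested rose. S100a8 and S100a9 together made up most of each sum, at 1714 to 2912 and 3355 to 5016 CPM with ABT-263. Csf3r and Cxcr2 were also higher in every treated library than in every control. So was Retnlg, but at 232 CPM in ABT-263 library 476 and 2.09 and 3.03 CPM in libraries 477 and 478. Ly6g, which was not tested, exceeded its DMSO range of 0 to 0.253 CPM only in library 476. Neutrophil content as such was not tested.

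Of the receptor genes, Fzd1 rose and Fzd3, known for planar polarity and axon guidance, fell, and 10 of 12 did not pass the test. The called share was 16.7%, against 24.2% of all genes tested. The groups did not overlap for 25% of the receptors, against 37.1% of all genes. Details follow for Fzd1 and Fzd3. They lie at chr5:4753839-4758035 (Fzd1) and chr14:65192449-65262463 (Fzd3) on GRCm38. Fzd1, a receptor of the beta-catenin branch, was at 17.3, 34.2, 23.3 and 26.7 CPM in DMSO libraries 480 to 483 and 39.4, 38.9 and 54.2 CPM in ABT-263 libraries 476 to 478. Every treated library lay above every control. Fzd1 rose by 0.80 ± 0.23 on the log2 scale (SE, adjusted p = 0.0407, edgeR). Fzd3 was at 6.14, 9.90, 6.06 and 7.11 CPM with DMSO and 3.40, 4.76 and 4.36 CPM with ABT-263. Every treated library lay below every control. Fzd3 fell by 0.80 ± 0.25 on the log2 scale (SE, adjusted p = 0.0478, edgeR). Both calls were close to the threshold: Fzd1 kept its call in 2 of 7 fits without 1 library, losing it without DMSO libraries 480, 482 or 483 or ABT-263 libraries 476 or 478. Those 5 fits gave adjusted p from 0.0535 to 0.136, and the log2 fold change ranged from 0.63 to 0.98 over all 7. Fzd3 kept its call in 1 of 7, the fit without DMSO library 480, with adjusted p from 0.0659 to 0.144 in the other 6 and log2 fold changes from −0.89 to −0.63.

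Among the abundant receptors, Fzd2 was at 39.0, 40.5, 38.4 and 40.8 CPM with DMSO and 24.1, 34.5 and 35.4 CPM with ABT-263. The controls were tightly grouped and all treated libraries lay below them, but the log2 fold change of −0.34 did not pass the test (adjusted p = 0.134, edgeR). Fzd4, also a receptor for Norrin in blood vessels, was at 39.0, 61.8, 42.2 and 72.4 CPM with DMSO and 81.7, 51.2 and 85.9 CPM with ABT-263. The groups overlapped (log2 fold change 0.44, adjusted p = 0.254, edgeR). Fzd7 was at 21.4, 41.5, 41.9 and 43.0 CPM with DMSO and 34.2, 35.5 and 54.8 CPM with ABT-263, again overlapping, with a log2 fold change of 0.17.

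The co-receptors did not pass the test. Lrp6 was at 33.9 to 39.6 CPM with DMSO and 36.4 to 40.6 CPM with ABT-263, and the 95% interval of its log2 fold change ran from −0.17 to 0.36, the narrowest of the 39 genes tested. Lrp5 spanned 49.5 to 71.9 CPM and 56.0 to 80.6 CPM, with a log2 fold change of 0.27. Fzd6, known for orienting hair follicles, spanned 34.3 to 42.9 CPM with DMSO and, more widely, 25.6 to 54.1 CPM with ABT-263. The other Frizzled genes, all receptors for Wnts, overlapped between groups too. Fzd10 varied most of these, from 9.24 to 28.0 CPM with DMSO and from 6.36 to 27.8 CPM with ABT-263, with a log2 fold change of −0.02 ± 0.52 (SE). Fzd9 spanned 6.28 to 14.6 CPM and 3.25 to 13.4 CPM, with a log2 fold change of −0.37 ± 0.51 (SE). For both genes the error exceeded the difference. Fzd8 and Fzd5 lay under 10 CPM in every library, with log2 fold changes of 0.32 and 0.11.

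Axin2, a feedback inhibitor induced by beta-catenin signalling in many tissues, was at 13.2, 24.9, 14.8 and 14.6 CPM in DMSO libraries 480 to 483 and 9.47, 15.4 and 15.2 CPM in ABT-263 libraries 476 to 478. Library 481 was the highest of all and library 476 the lowest, and ABT-263 libraries 477 and 478 lay just above the other 3 controls. The log2 fold change was −0.34 with a 95% interval from −0.96 to 0.29 (adjusted p = 0.393, edgeR). Lef1, a DNA-binding partner of beta-catenin that is also its target, was at 4.62, 20.8, 5.49 and 3.98 CPM with DMSO and 1.39, 1.89 and 2.90 CPM with ABT-263. All treated libraries lay below all controls, and library 481 lay far above the rest. Its log2 fold change of −2.07 ± 0.66 was the largest in size of all 39 and missed the threshold (SE, adjusted p = 0.0557, edgeR). Without library 481 it was −1.18 ± 0.33 (SE, adjusted p = 0.0518, edgeR).

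Library 481 also held the highest sum of hair shaft and matrix markers, 3712 CPM, and the highest Wnt10b, Wnt11, Wnt5a and Rspo1. None of the 13 such markers tested was called, the median log2 difference over them was −2.25, and none of the 17 markers was at 0 in every library. The next highest sum, 601 CPM, was in ABT-263 library 478. There Lef1 (2.90 CPM) and Rspo1 (4.94 CPM) lay below every control, and Wnt10b (3.24 CPM) and Wnt11 (7.07 CPM) lay within the DMSO range. Wnt5a (10.3 CPM) and Axin2 (15.2 CPM) lay above every control except library 481. The part of follicle content or growth phase in the values of Lef1, Wnt10b and the other follicle-associated genes was not tested. Without library 481, 2 Wnt genes were higher and 3 lower, and without library 476, 1 was higher and 4 were lower. These fits have fewer libraries, and the share of all genes called in them is not given here.

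**Figure D3:**
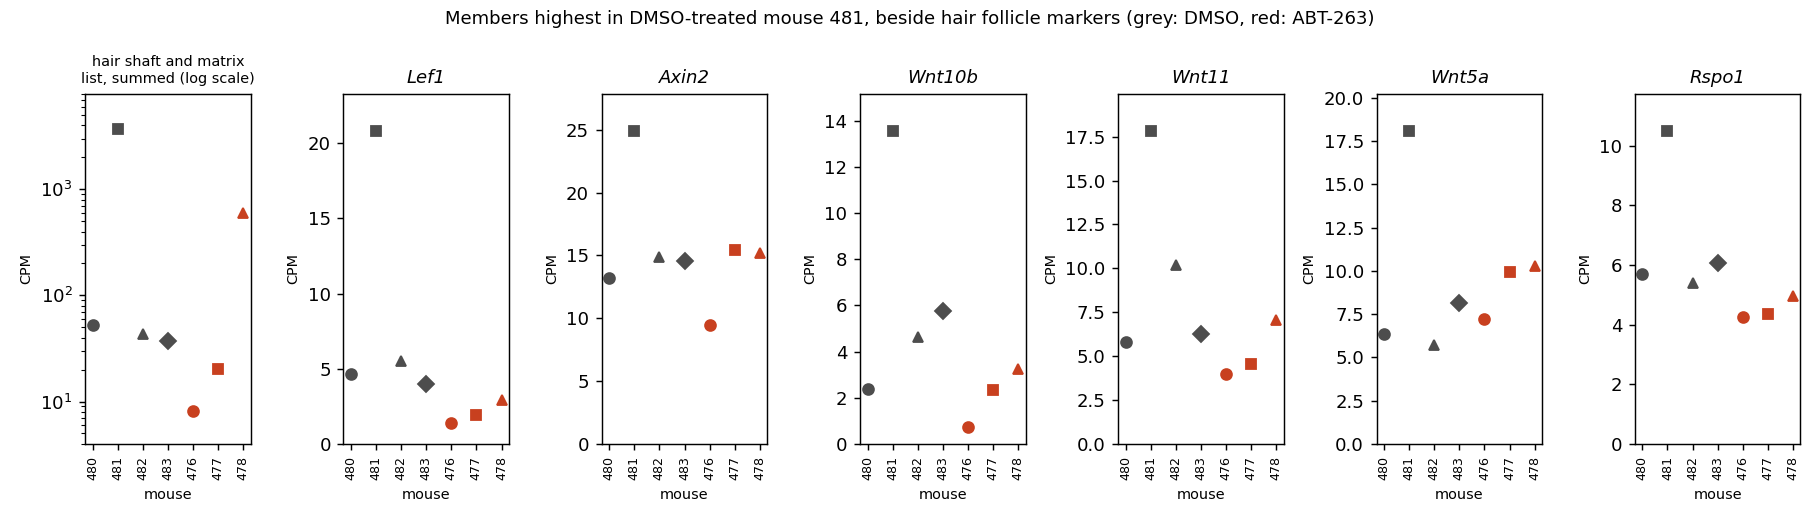
CPM in each library for the summed hair shaft and matrix markers (log scale) and for 6 Wnt genes highest in DMSO library 481 (linear scales from 0), with grey for DMSO and red for ABT-263. Library 481 stands above the other 3 controls in every panel, from 3712 CPM for the marker sum to 10.5 CPM for Rspo1.

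Summed per role, ligand and R-spondin transcripts were on average lower after ABT-263. The sum of the 7 Sfrp, Dkk and Wif1 inhibitors was higher with Sfrp2 included. These sums are described without a test. The ligand sum was 137, 133, 119 and 97.1 CPM per kb in DMSO libraries 480 to 483 and 43.9, 98.8 and 64.5 CPM per kb in ABT-263 libraries 476 to 478. Library 477 lay just above DMSO library 483, so the groups overlapped, with means of 122 ± 18.1 and 69.1 ± 27.7 (SD, n = 4 and 3). With Wnt4 left out, an alternative chosen after seeing the data, the ligand sums no longer overlapped, with means of 55.5 and 35.2 CPM per kb.

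Inhibitor sums were 42.2, 43.5, 42.2 and 55.9 CPM per kb with DMSO and 57.6, 62.6 and 69.1 CPM per kb with ABT-263, so every treated library lay above every control. Without Sfrp2, an alternative chosen after seeing the data, the inhibitor sums overlapped, at 31.7, 37.8, 37.2 and 49.9 CPM per kb with DMSO and 41.2, 35.8 and 47.3 CPM per kb with ABT-263, with means of 39.2 and 41.4. Sfrp2 was the only inhibitor left out in this way. With all of them included the gap was narrow, from 55.9 in DMSO library 483 to 57.6 in ABT-263 library 476. Dkk3 made up 15.1% and 19.0% of those sums. Inhibitors outside the Sfrp, Dkk and Wif1 genes are not in these sums. From a list of 7 other secreted or membrane inhibitors, 6 were tested, and 1 rose and 1 fell. Together these were 33.3% of those tested, against 24.2% of all genes. Cthrc1 averaged 4.84 CPM per kb with DMSO and 22.7 with ABT-263 and rose by 2.23 on the log2 scale (adjusted p = 0.0128, edgeR). Sostdc1 averaged 30.5 CPM per kb with DMSO and 19.2 with ABT-263. Sostdc1 fell by 0.67 on the log2 scale (adjusted p = 0.0476, edgeR). R-spondin sums were 6.48, 10.6, 7.38 and 6.88 CPM per kb with DMSO and 3.50, 3.84 and 4.37 CPM per kb with ABT-263, all below the controls. Receptor sums overlapped, at 55.8 to 68.8 and 56.2 to 82.7 CPM per kb. The ratio of inhibitor to ligand transcripts was 0.308, 0.326, 0.354 and 0.576 with DMSO and 1.31, 0.634 and 1.07 with ABT-263. All treated libraries had a higher ratio than all controls, with means of 0.391 ± 0.125 and 1.01 ± 0.344 (SD, n = 4 and 3), 2.57-fold apart. Without Sfrp2 the ratios overlapped, at 0.231 to 0.514 with DMSO and 0.363 to 0.938 with ABT-263, with ABT-263 library 477 below DMSO library 483. Without Wnt4 they did not overlap, with means of 0.850 and 1.87. The ratio is of transcripts, and protein was not measured in these files.

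**Figure D4:**
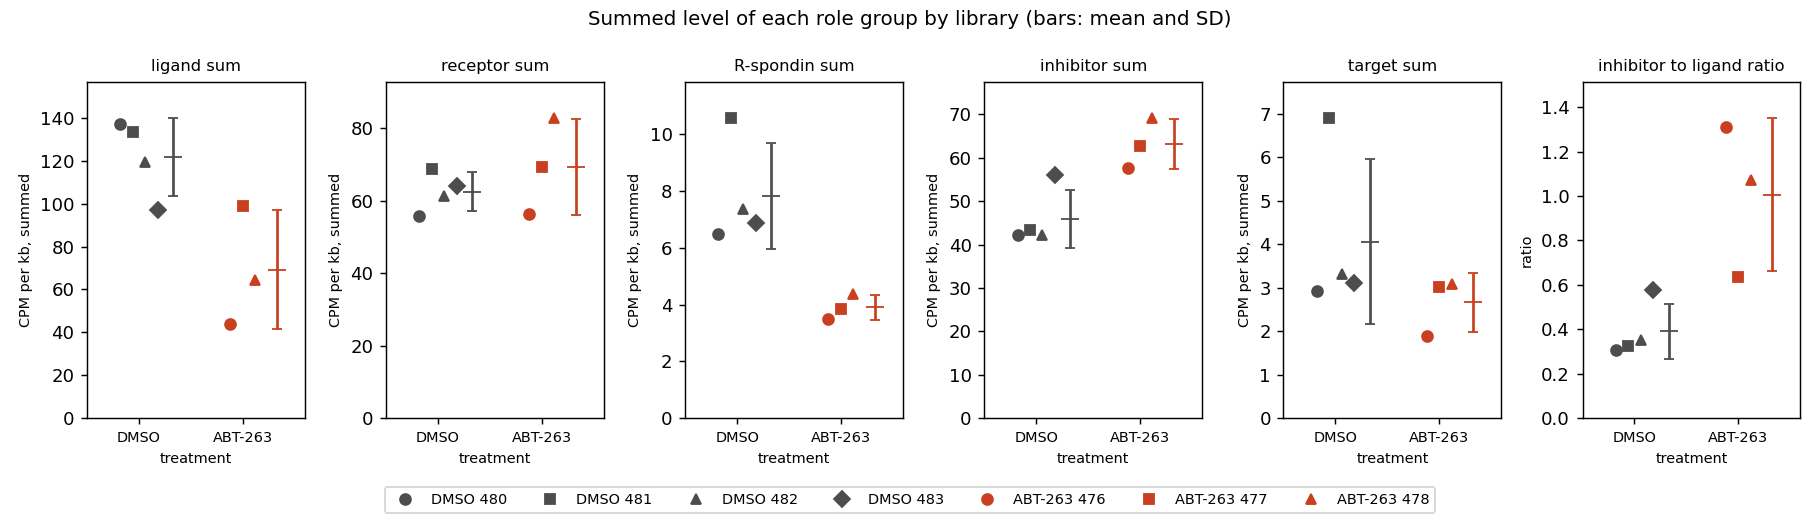
Summed level per role in each library, in CPM per kb of exon, and the ratio of the inhibitor to the ligand sum, with bars for mean and SD (n = 4 DMSO, grey, and n = 3 ABT-263, red). The groups do not overlap for R-spondins, nor for inhibitors and the ratio, which overlap once Sfrp2 is left out, and they overlap for ligands, receptors and target genes.

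Genes that act elsewhere in the pathway also changed in both directions. Of 62 other pathway genes tested from a list of 63, 8 rose and 12 fell, or 32.3% together, against 24.2% of all genes, with a median log2 difference of −0.23. Cthrc1, a secreted matrix protein that can bind Wnts and Frizzled receptors, rose from 2.57 to 10.7 CPM with DMSO to 29.4 to 44.3 CPM with ABT-263 (log2 fold change 2.23, adjusted p = 0.0128, edgeR). Porcn, the enzyme that lipidates Wnts, rose by 0.86 on the log2 scale (adjusted p = 0.0322, edgeR), whereas their carrier Wls differed by 0.10 (adjusted p = 0.752, edgeR).

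Among receptors for R-spondins, Lgr6 fell by 1.38 on the log2 scale (adjusted p = 0.0162, edgeR), and Lgr5 differed by −0.74 (adjusted p = 0.129, edgeR). Of the 11 genes for other receptors and receptor turnover, 3 fell and 0 rose: Lgr6, Ryk and Rnf43, the last only just (adjusted p = 0.0499, edgeR). The called share was 27.3%, where 24.2% of all genes tested were called in either direction and 11.7% were called lower. Ctnnb1, which encodes beta-catenin, rose by 0.58 on the log2 scale (adjusted p = 0.0317, edgeR). Nuclear factor Tcf7l2, a partner of beta-catenin, fell by 1.32 (adjusted p = 0.00578, edgeR) and lay at 41.9 to 54.9 CPM with DMSO and 15.9 to 20.4 CPM with ABT-263.

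Nkd2, an antagonist that binds Dishevelled, fell by 1.29 on the log2 scale (adjusted p = 0.0463, edgeR), and Vangl2, a planar polarity protein, fell by 1.08 (adjusted p = 0.0419, edgeR). Notum, which removes the lipid from Wnts, and Frzb, a further secreted Frizzled-related protein, each had a log2 fold change of −1.17 and did not pass the test (adjusted p = 0.126 and 0.115, edgeR). Of 13 commonly used target genes, 2 rose and 1 fell, or 23.1% together, against 24.2% of all genes tested. Their median log2 difference was −0.66. The number of these pathway genes past the threshold was 4 without DMSO library 482 or without ABT-263 library 478, and up to 15 without another. Such fits have fewer libraries, and the share of all genes called in them is not given here. These counts therefore do not show a trait of the pathway genes or of the libraries left out.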

How the data were processed

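PolyA RNA from dorsal skin of 7 mice was sequenced. The authors aligned read pairs to mm10 with STAR 2.7.9a and deposited raw counts per Ensembl gene from featureCounts (Subread 1.6.2), using uniquely aligned proper pairs on the same strand and leaving out mitochondrial genes. A deposited table of variance-stabilised values was not used. Strand-aware counting separates antisense genes, and short or low genes carry more counting error. Symbols, positions and exon lengths came from GENCODE M21 (GRCm38), which held 55104 of the 55450 identifiers.

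Counts were normalised by TMM and tested in R 4.3.3 with edgeR 4.0.16 (filterByExpr, robust quasi-likelihood F test, two-sided, Benjamini-Hochberg over 17959 genes, threshold 0.05), with no covariate since the labels name no batch. Standard errors came from the F statistic and intervals cover 95%. Levels between genes are CPM per kb of exon union. Floors of 3 counts cover counting error only. An exact permutation test of 4 against 3 cannot go below 0.0286. The code was tested on simulated data.

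The Wnt genes, lists and tests were chosen with earlier results of these data known. Values in every library are given for genes past the threshold, the 3 with the highest level per kb in each role, those without overlap and over 2-fold, the extremes of each role, Axin2 and Lef1, and for other pathway genes past the threshold over 2-fold plus Lgr5, Lgr6, Ctnnb1, Wls, Porcn, Notum and Frzb, given in brief. Ryk, Rnf43, Sostdc1, Krt15, Sox9, Lhx2, Tbx1, Krt75, Cd34, Dkk3 and values beyond this rule were named after they were seen. The same holds for S100a8, S100a9, Csf3r, Cxcr2, Retnlg and Ly6g. Alternatives were DESeq2 1.42.0 (Wald test), its size factors, other count filters, protein-coding genes only, removal of length and GC trends (mgcv 1.9.3) and leaving out each library.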

Additional observations from a re-analysis of the deposited data

Results flagged for a closer look

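Of 48 Wnt genes and role sums examined in the 4 DMSO libraries, 7 had a highest or lowest library separated from its nearest neighbour by more than Dixon's 95% critical share of the group's range. Chance gives about 1 in 20, or 2.4 of 48, for normally distributed values. The role sums and the ratio are built from the same genes, so 7 against 2.4 cannot be read as an excess. DMSO library 481 stood apart at the top for Lef1 (0.910 of the range), for the summed target genes that include it (0.899), for Rspo1 (0.865) and for Axin2 (0.859). DMSO library 480 stood apart at the bottom for Fzd7, at 0.930 of the range. DMSO library 483 stood apart at the top for the summed inhibitors (0.907), to which Dkk2 contributed 18.1% there, and for the ratio of inhibitors to ligands (0.82901).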

How the results depend on the processing

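No paired analysis was possible because the groups share no replicate number. Over 13 alternatives for 39 tested Wnt genes, 430 of 507 values kept direction and call, 34 lost the call, 7 gained it and 36 changed sign, all of the last uncalled. Wnt genes higher numbered 2, and 1 with protein-coding genes only or with length and GC trends removed, which lost Fzd1. Leaving out single libraries gave 1 to 2. Wnt genes lower numbered 6, and 3 when genes with at least 1 or at least 10 counts were tested, where Wnt3, Wnt7b and Fzd3 missed the threshold. With trends removed it was 6 again, with Fzd3 lost (adjusted p = 0.0653, edgeR) and Lef1 gained (0.0444). Leaving out single libraries gave 1 (without DMSO library 482) to 6. Other pathway genes past the threshold numbered 20, and 4 to 15 with single libraries left out. Counts with a library left out are given without the share of all genes called in the same fit. The DESeq2 Wald test called 3 higher and 9 lower, adding Dkk3, Wnt4, Wnt10b and Lef1. Without Sfrp2, the log2 difference of the inhibitor sums was 0.081. The causes were not tested.

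Log2 fold changes of the following uncalled genes changed sign. Sfrp5 was −0.0019 with protein-coding genes only. Wnt5b was 0.013 with DESeq2, 0.0019 with its size factors, 0.031 and 0.023 with at least 1 and 10 counts and 0.021 with trends removed. With trends removed Wnt9a was −0.045 and Fzd6 −0.074. Fzd10 was 0.019 and 0.0085 with at least 1 and 10 counts. With single libraries left out, log2 fold changes ranged from −0.21 to 0.26 for Sfrp5, −0.15 to 0.59 for Sfrp4, −0.25 to 0.44 for Wnt5a, −0.25 to 0.18 for Wnt5b, −0.12 to 0.15 for Wnt9a, −0.33 to 0.89 for Wnt9b, −0.12 to 0.34 for Fzd6, −0.079 to 0.30 for Fzd7, −1.05 to 0.019 for Fzd9, −0.44 to 0.39 for Fzd10 and −0.0099 to 0.34 for Fzd5. Depth limits Wnt1, Wnt2b and Rspo2.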

Other observations

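Several Wnt genes lie side by side in the genome, and their differences after ABT-263 can be set beside each other. Wnt6 and Wnt10a lie 6.19 kb apart on chromosome 1 on the same strand, and on the log2 scale Wnt6 differed by −1.06 (adjusted p = 0.0168, edgeR) where Wnt10a differed by −0.21 (adjusted p = 0.431, edgeR). Wnt3 and Wnt9b lie 24.3 kb apart on chromosome 11 on opposite strands, with log2 fold changes of −1.22 and 0.10. Wnt3a and Wnt9a, 16.2 kb apart on the same chromosome, had −0.46 and 0.04. Whether the neighbours of a pair differ from each other was not tested.

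The make-up of the R-spondin sum is described without a test. Rspo3 was 42.6% to 54.7% of it with DMSO and 27.7% to 29.7% with ABT-263, and Rspo1 was 37.7% to 51.2% and 58.4% to 62.7%. Within the ligand sum, Wnt10a, the second ligand, held 10.3% to 13.5% with DMSO and 15.6% to 20.8% with ABT-263, while its own level did not pass the test.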
